A study of Mus musculus with 16 samples.

Results

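Hypoxia and glycolysis genes were followed in tumours of B16R2L, a mouse melanoma cell line grown in mice. The set was given as 33 gene symbols, chosen by name from known glycolytic enzymes, glucose and lactate transporters and targets of the hypoxia-inducible factor HIF. All 33 were among the 16094 genes of the deposited table, and all 33 passed the filter on low values that left 14672 genes for testing. The design crossed the cell line with the antibody, with 4 tumours in each of 4 groups. The shCtrl line carried a non-target short hairpin RNA, and the shMdk line carried a single hairpin against Mdk, which encodes the secreted growth factor midkine. Once tumours had reached 100 mm3, mice received clone RMP1-14, an antibody against PD1, at 10 mg per kg per the sample labels, or an IgG2a control antibody, 2 times per week for 2 weeks. Every group therefore carried a hairpin and received an antibody. Each line stands for 1 hairpin, and the host strain, sex and age of the mice and whether each tumour came from its own mouse are not given in the sources used here. RNA from whole tumours was sequenced from the 3′ end of polyadenylated transcripts (QuantSeq), so a value reflects all cells of the tumour, and fewer cells of a type cannot be told apart from less RNA per cell.

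Glycolysis splits glucose into pyruvate, and when oxygen is short, or in many tumours even when it is not, pyruvate is reduced to lactate and exported. HIF is a transcription factor whose alpha subunit is hydroxylated by oxygen-dependent prolyl hydroxylases and then degraded. In low oxygen the subunit persists and raises transcription of glucose transporters, most glycolytic enzymes, lactate export and the angiogenic factor VEGF-A. Because HIF-1 alpha is controlled mainly at the protein level, mRNA of its targets is commonly read in its place.

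Values are normalised counts, that is, 3′ tags of a gene divided by the size factor of the library, with 5686405 to 8886334 recovered reads per tumour. They are not scaled by gene length, and with 1 tag per transcript levels may be set beside each other between genes on that scale. Differences are log2 fold changes of the normalised count plus 1, with standard errors, from limma fitted to all 16 tumours and adjusted with the Benjamini-Hochberg method over the 14672 genes. A gene was called at an adjusted p under 0.05. Mdk itself had normalised counts of 601, 727, 959 and 1161 in shCtrl IgG2a, 925, 606, 1104 and 856 in shCtrl anti-PD1, 150.2, 203, 323 and 121 in shMdk IgG2a and 312, 289.9, 147 and 96.5 in shMdk anti-PD1 tumours. Its level was lower in every shMdk tumour than in any shCtrl tumour, with a log2 fold change of -2.17 ± 0.36 (adjusted p = 0.00166) under anti-PD1. A set of 5 libraries stood apart when each gene's deviation from its mean over the 16 tumours was set against GC content. In these 5 the deviations rose with the GC content of a transcript's last 300 bases, and in the other 11 they fell. The slopes are relative to that mean, so their signs compare libraries and do not describe levels within a library. The 5 libraries were shCtrl IgG2a tumours 1 and 2, shMdk IgG2a tumours 3 and 4 and shMdk anti-PD1 tumour 1. Their slopes over genes were 0.0927 to 0.201 log2 units per 10% GC, against -0.122 to -0.00916 in the rest. All 10 melanocyte marker genes listed for the tissue label were measured, with summed normalised counts of 130635 to 221030.

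Of the 33 members, 3 differed between shMdk and shCtrl tumours under anti-PD1: the lactate exporter gene Slc16a3 and the HIF hydroxylase gene Egln3 were higher in shMdk tumours, and the aldolase gene Aldoc was lower. All 3 are protein-coding genes, placed on GRCm38 by GENCODE M21 at chr11:120948480-120960868 on the forward strand (Slc16a3), chr12:54178981-54203860 on the reverse strand (Egln3) and chr11:78322968-78327781 on the forward strand (Aldoc). The 250 bases before their RefSeq transcription starts (GRCm38.p6) are shown 5′ to 3′ on the gene's strand because HIF binds a short core, ACGTG or GCGTG, and these are the members whose level differed. Capitals mark that core on either strand. The stretches are chr11:120948817-120949066 on the forward strand, chr12:54203875-54204124 on the reverse strand and chr11:78322823-78323072 on the forward strand. The Slc16a3 stretch lies inside the gene as GENCODE places it, and the Aldoc stretch runs past the GENCODE start of its gene. RefSeq gives Aldoc another window, at chr11:78323948-78324247 with 1 match, whose sequence is not shown.
Slc16a3: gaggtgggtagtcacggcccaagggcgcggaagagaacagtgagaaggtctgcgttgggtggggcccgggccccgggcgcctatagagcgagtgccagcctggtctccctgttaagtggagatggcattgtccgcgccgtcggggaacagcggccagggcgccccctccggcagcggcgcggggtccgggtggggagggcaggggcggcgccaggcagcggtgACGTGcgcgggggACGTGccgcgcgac
Egln3: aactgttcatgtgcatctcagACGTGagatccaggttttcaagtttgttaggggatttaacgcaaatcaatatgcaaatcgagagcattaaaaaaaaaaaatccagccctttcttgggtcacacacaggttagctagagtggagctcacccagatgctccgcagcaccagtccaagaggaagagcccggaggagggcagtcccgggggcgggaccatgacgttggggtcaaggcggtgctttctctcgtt
Aldoc: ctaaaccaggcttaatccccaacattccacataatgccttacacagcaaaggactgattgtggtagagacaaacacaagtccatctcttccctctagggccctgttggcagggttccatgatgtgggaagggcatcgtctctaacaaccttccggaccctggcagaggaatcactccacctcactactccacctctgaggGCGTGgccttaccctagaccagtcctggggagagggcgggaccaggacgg

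In these windows Slc16a3 held ACGTG 27 and 14 bases before the start, and Egln3 held it 229 bases before. Aldoc held GCGTG 50 bases before the start and 2 further matches on the reverse strand beginning 12 and 28 bases after it. RefSeq gave windows of 300 bases (250 before and 50 after a start) for 32 of the 33 members, 47 windows in all, and none for Ndrg1. Of these, 36 (76.6%) held ACGTG or GCGTG, against 43.8% of the 32851 windows of all genes. The longer E-box CACGTG, which contains ACGTG and is also read by other factors, was in 5 member windows (10.6%) and in 7.15% of all windows. Members were chosen partly as HIF targets, and a match describes letters, not binding.

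Among transporters, Slc16a3 (MCT4, which carries lactate out of glycolytic cells) had normalised counts of 107, 58.6, 48.5 and 38.8 in shCtrl IgG2a, 26.7, 67.6, 52.1 and 47.6 in shCtrl anti-PD1, 89.0, 79.1, 79.6 and 275 in shMdk IgG2a and 326, 131, 129 and 146 in shMdk anti-PD1 tumours. The shMdk anti-PD1 tumours were all above the shCtrl anti-PD1 tumours, while the IgG2a groups overlapped, and shMdk IgG2a tumour 4 and shMdk anti-PD1 tumour 1 stood far above the rest. Slc16a3 rose by 1.85 ± 0.43 (adjusted p = 0.0144) on the log2 scale under anti-PD1, from 48.5 ± 16.9 to 183 ± 95.9 normalised counts (SD, n = 4 each; limma). Under IgG2a the difference was 0.92 ± 0.43 (adjusted p = 0.503), and averaged over antibodies it was 1.38 ± 0.30 (adjusted p = 0.00653). The anti-PD1 call was lost without shCtrl anti-PD1 tumour 1 (1.59, adjusted p = 0.0546, limma) or without shMdk anti-PD1 tumour 1 (1.53, adjusted p = 0.0647, limma). The averaged call held in all 30 alternative fits. Of the 5 libraries of positive GC slope, only shMdk anti-PD1 tumour 1 was in the anti-PD1 groups. Without the 5 the anti-PD1 difference was therefore the same 1.53 as without that tumour alone. Its adjusted p was 0.00926 (limma), in a fit that also left out tumours of the IgG2a groups.

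The other transporters did not pass. Slc16a1 (MCT1, the lactate and pyruvate carrier of most cells) stood at 373, 296, 425 and 534 in shCtrl IgG2a, 398, 347, 402 and 416 in shCtrl anti-PD1, 375, 377, 371 and 538 in shMdk IgG2a and 293, 270.3, 500.0 and 366 in shMdk anti-PD1 tumours. Its groups overlapped in all 4 simple comparisons, and its 95% interval under anti-PD1 was -0.60 to 0.26 log2 units for shMdk against shCtrl. Slc2a1 (GLUT1, the HIF-responsive glucose transporter) had 406, 347, 778 and 732 in shCtrl IgG2a, 566, 849.7, 407 and 624 in shCtrl anti-PD1, 563, 497, 367 and 456 in shMdk IgG2a and 572, 394, 644 and 1148 in shMdk anti-PD1 tumours. Its highest value was shMdk anti-PD1 tumour 4, and its log2 difference between lines under anti-PD1 was 0.11 ± 0.31 (adjusted p = 0.911). As a ratio within each tumour, Slc16a3 was 6.70% to 28.7% of Slc16a1 in shCtrl tumours and 21.0% to 111% in shMdk tumours, with group medians of 15.6% and 12.2% in shCtrl under IgG2a and anti-PD1 and of 22.6% and 44.1% in shMdk.

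Egln3 (PHD3, a prolyl hydroxylase that marks HIF alpha for degradation and is itself a HIF target) was among the members with the fewest reads. Its normalised counts were 27.0, 10.7, 3.80 and 6.46 in shCtrl IgG2a, 11.96, 27.0, 1.86 and 13.5 in shCtrl anti-PD1, 21.1, 21.8, 16.1 and 47.3 in shMdk IgG2a and 143, 22.5, 60.2 and 94.8 in shMdk anti-PD1 tumours. The lowest shMdk anti-PD1 tumour lay below the highest shCtrl one, so the groups overlapped, and 1 shCtrl anti-PD1 tumour rested on 2 reads. Egln3 rose by 2.59 ± 0.68 (adjusted p = 0.0312) on the log2 scale in shMdk against shCtrl under anti-PD1 (limma), from 13.6 ± 10.3 to 80.1 ± 51.2 normalised counts (SD, n = 4 each). Dropping single tumours ended that call 6 of 8 times, all but those without shCtrl anti-PD1 tumour 2 or shMdk anti-PD1 tumour 2, and the 8 fits gave 1.94 to 3.09 with adjusted p up to 0.127 (limma). Fitting only the 8 tumours compared also ended it, with the same estimate of 2.59 (adjusted p = 0.0508, limma). Without the 5 libraries of positive GC slope it was 2.22 (adjusted p = 0.0932, limma), the same estimate as without shMdk anti-PD1 tumour 1 alone. Averaged over antibodies the difference was 1.94 ± 0.48 (adjusted p = 0.0166), and it missed the threshold only without the 5 libraries of positive GC slope (2.07, adjusted p = 0.0542, limma), among the 30 alternative fits run.

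Hif1a, which encodes the oxygen-regulated subunit itself, had normalised counts of 1048, 813, 1148 and 1059.6 in shCtrl IgG2a, 1060.3, 1052, 1055 and 1039.8 in shCtrl anti-PD1, 1055, 871, 1066 and 1035 in shMdk IgG2a and 1443, 1249, 1118 and 1535 in shMdk anti-PD1 tumours. In the shMdk anti-PD1 group 3 of 4 tumours lay above all the tumours of the other groups, and the lowest lay below shCtrl IgG2a tumour 3 alone. The gene was not called: its log2 difference was 0.33 ± 0.13 (adjusted p = 0.176) for shMdk against shCtrl under anti-PD1 and 0.40 ± 0.13 (adjusted p = 0.253) for anti-PD1 against IgG2a in shMdk. Egln1 (PHD2, the main HIF hydroxylase in normal oxygen) ranged from 647 to 1596 over the 16 tumours and was called in none of the 7 comparisons.

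Aldoc (aldolase C, a brain-type isozyme of the enzyme that splits fructose 1,6-bisphosphate) was the only one of the 15 glycolytic enzyme genes to pass in any comparison. Its normalised counts were 1059, 816, 992 and 981 in shCtrl IgG2a, 1148, 1154, 886 and 762 in shCtrl anti-PD1, 804, 686, 837 and 732 in shMdk IgG2a and 621, 622, 603 and 552 in shMdk anti-PD1 tumours. The shMdk anti-PD1 tumours formed the lowest group, below every tumour of the other 3 groups. Aldoc fell from 988 ± 195 to 599 ± 32.8 normalised counts between shCtrl and shMdk under anti-PD1 (SD, n = 4 each), a log2 change of -0.70 ± 0.14 (adjusted p = 0.00615) with limma. Averaged over antibodies it fell by 0.51 ± 0.10 (adjusted p = 0.00268, limma), while under IgG2a alone the change was -0.33 ± 0.14 (adjusted p = 0.435). Both calls held in every alternative fit run, 23 under anti-PD1 and 30 averaged, with log2 changes of -0.82 to -0.62 and -0.57 to -0.47.

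**Figure D1:**
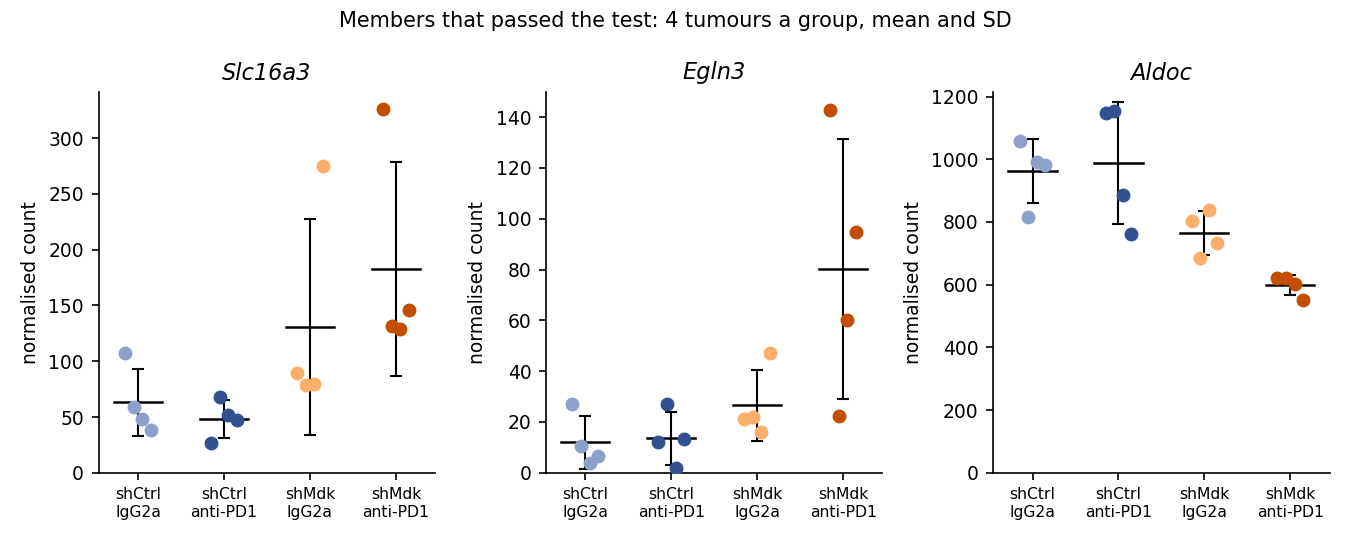
Normalised counts (vertical axis) of Slc16a3, Egln3 and Aldoc in the 4 groups; each point is a tumour, the bar is the mean and the whiskers the SD of 4 tumours. Aldoc is at 622 or less in all shMdk anti-PD1 tumours and at 762 or more in all shCtrl anti-PD1 tumours, and single tumours reach 275 and 326 for Slc16a3.

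Markers of several other cell types also differed between the lines. The summed normalised count of 16 macrophage and monocyte genes was 726 to 1735 in shCtrl IgG2a, 576 to 2447 in shCtrl anti-PD1, 2448 to 5727 in shMdk IgG2a and 5464 to 11732 in shMdk anti-PD1 tumours. None of the 16 was at 0 throughout a group, and 16 of 16 were higher in shMdk under anti-PD1 with limma. The 8 pan-leukocyte genes summed to 2274 to 2902 in shCtrl anti-PD1 and 4245 to 5186 in shMdk anti-PD1 tumours, and 10 melanocyte genes to 157933 to 214261 and 130635 to 174472. Fibroblast and pericyte genes (8 measured of 10) summed to 522 to 2592 and 1705 to 13789 in the same groups. Blood endothelium genes (11 measured of 12) summed to 1579 to 2169 and 1898 to 3837 there. Of these, 3 of 11 were called higher (limma), beside 4.93% of all genes. The tumours highest in Slc16a3, shMdk anti-PD1 tumour 1 and shMdk IgG2a tumour 4, had endothelium sums of 3837 and 3461. Inside the shMdk anti-PD1 group, tumour 2 had the highest macrophage and monocyte sum (11732) and the lowest Egln3 (22.5). The part of these cells in the Slc16a3, Egln3 and Aldoc differences was not tested.

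The remaining glycolytic enzymes were not called. Among the 15 enzyme genes under anti-PD1, 1 fell and 14 were not called, with a median log2 difference of -0.12 for the 15. Hk2 (the hexokinase that commits glucose to glycolysis in many tumours) had 5461, 3493, 4227 and 4046 in shCtrl IgG2a, 3843, 10315, 2785 and 3779 in shCtrl anti-PD1, 6235, 3259.6, 3726 and 4078 in shMdk IgG2a and 4562, 3486, 3686 and 5021 in shMdk anti-PD1 tumours. The value of 10315 belonged to shCtrl anti-PD1 tumour 2, where the other 3 tumours of the group had 2785 to 3843, and the line difference under anti-PD1 was -0.13 ± 0.31 (adjusted p = 0.896) with limma. Pgk1 (phosphoglycerate kinase, the first ATP-yielding step and a classical HIF target) was steadier, at 18655, 19222, 16912 and 16793 in shCtrl IgG2a, 18112, 20191, 15311 and 18183 in shCtrl anti-PD1, 16566, 17156, 19758 and 20064 in shMdk IgG2a and 18685, 14481, 18406 and 16331 in shMdk anti-PD1 tumours. Its highest tumour was 1.39 times its lowest. Eno2 (the neuron-type enolase) had the fewest reads among the enzymes, at 81.0, 24.5, 36.1 and 50.8 in shCtrl IgG2a, 59.8, 69.1, 35.3 and 55.7 in shCtrl anti-PD1, 14.5, 41.8, 49.3 and 65.2 in shMdk IgG2a and 79.7, 28.4, 22.9 and 47.4 in shMdk anti-PD1 tumours. The groups overlapped in each simple comparison. Over the 16 tumours Pfkm, the lowest of the other enzymes, ranged from 123 to 209, and the highest were Aldoa at 18528 to 36446, Pkm at 17603 to 40441 and Pgam1 at 16606 to 44187. Reads of Eno1, Gapdh, Aldoa and Hk1 can be shared with near-identical copies or an antisense transcript; those listed reached at most 0.690% (Eno1b), 0.188% (Gapdh-ps14), 0.121% (Aldoart1) and 1.29% (Hk1os) of the member, and reads lost to unlisted copies were not measured, so their levels are uncertain.

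The balance of the phosphofructokinase genes, which encode the platelet and liver isozymes of the enzyme that controls glycolytic flux, did separate the lines. Pfkp was 73.4% to 92.0% of Pfkl in shCtrl IgG2a and 70.7% to 87.3% in shCtrl anti-PD1 tumours. It was 108% to 124% in shMdk IgG2a and 100.1% to 137% in shMdk anti-PD1 tumours, so all 8 tumours of each line lay on their own side of 100%. Neither gene was called alone: the log2 difference under anti-PD1 was 0.50 ± 0.25 (adjusted p = 0.307) for Pfkp and -0.12 ± 0.20 (adjusted p = 0.844) for Pfkl with limma. Of the 9 ratios of related genes computed, this is the one whose lines did not overlap under either antibody, and no test was made. Both genes had higher medians in the 5 libraries of positive GC slope, by 1.61 times for Pfkp and 1.19 times for Pfkl. The part of the GC slope in the ratio was not tested.

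**Figure D2:**
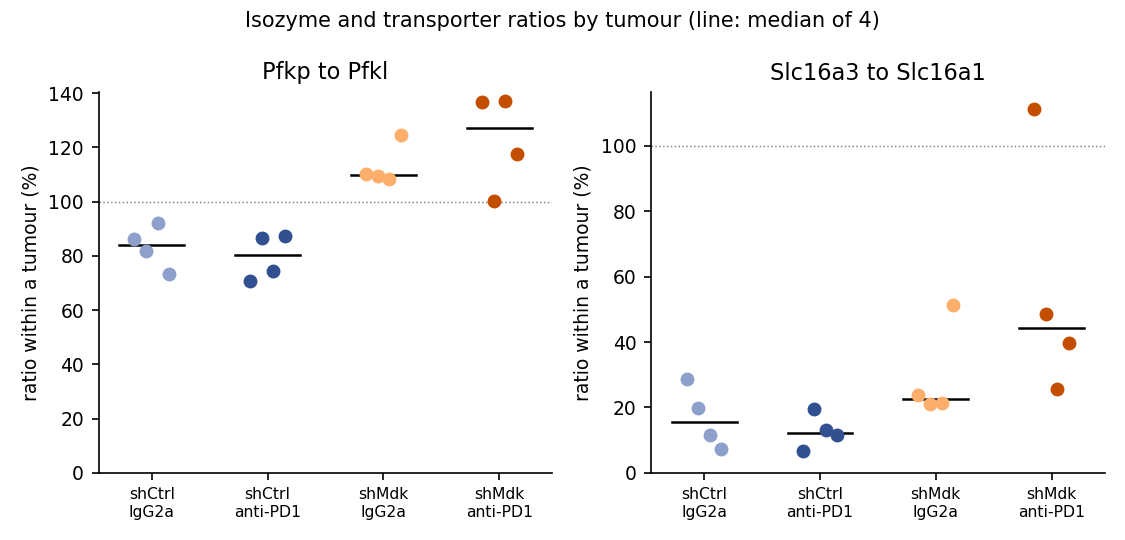
Ratio within each tumour in percent (vertical axis) of Pfkp to Pfkl and of Slc16a3 to Slc16a1 by group; points are tumours, bars the median of 4, and the dotted line marks 100%. Pfkp lies below Pfkl in the 8 shCtrl tumours and above it in the 8 shMdk tumours, and the Slc16a3 to Slc16a1 ratio reaches 111% in shMdk anti-PD1 tumour 1.

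Neither of the pyruvate fate genes was called. Ldha (lactate dehydrogenase A, which makes lactate from pyruvate) had 12131, 10513, 11752 and 11197 in shCtrl IgG2a, 11102, 11432, 9889 and 12781 in shCtrl anti-PD1, 10896, 11140.4, 10323 and 13042 in shMdk IgG2a and 9862, 8108, 11185 and 11426 in shMdk anti-PD1 tumours. The 16 tumours spanned 8108 to 13042, and the 95% interval of the line difference under anti-PD1 was -0.46 to 0.13 log2 units. Pdk1 (a kinase that inhibits pyruvate dehydrogenase) had 773, 634, 804 and 958 in shCtrl IgG2a, 883, 1081, 611 and 791 in shCtrl anti-PD1, 810.0, 717, 676 and 703 in shMdk IgG2a and 758, 783, 803 and 894 in shMdk anti-PD1 tumours. Its groups overlapped, and its interval for the same comparison was -0.37 to 0.31.

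None of the 10 other HIF targets was called in any comparison. Bnip3 (a mitophagy receptor) had 4264, 3111, 3562 and 3802 in shCtrl IgG2a, 3806, 4811, 2144 and 3305 in shCtrl anti-PD1, 3059.8, 3378, 4060.2 and 4729.6 in shMdk IgG2a and 5528, 2844, 4087 and 4463 in shMdk anti-PD1 tumours. Vegfa (the angiogenic ligand) had 360.2, 233, 605 and 762 in shCtrl IgG2a, 688, 656, 368 and 471 in shCtrl anti-PD1, 338, 390.2, 374 and 401 in shMdk IgG2a and 453, 387, 681 and 930.2 in shMdk anti-PD1 tumours. These groups overlapped in every simple comparison. Car9 (carbonic anhydrase IX, a tumour marker of low oxygen) varied most after Egln3, with 144, 145, 1069.9 and 1018 in shCtrl IgG2a, 709, 416, 559.7 and 596 in shCtrl anti-PD1, 247, 256, 172 and 75.7 in shMdk IgG2a and 402, 224, 511 and 1047 in shMdk anti-PD1 tumours. Its highest tumour was 14.1 times its lowest, and it varied widely inside groups: shCtrl IgG2a tumours stood at 144 and 145 or at 1069.9 and 1018, and the low pair were libraries of positive GC slope. Its log2 difference in shMdk against shCtrl under IgG2a was -1.19 ± 0.62 (adjusted p = 0.596) and for anti-PD1 against IgG2a in shMdk 1.46 ± 0.62 (adjusted p = 0.358), both limma. Ankrd37 (an ankyrin-repeat protein strongly induced by HIF) had 36.0, 34.1, 72.3 and 95.1 in shCtrl IgG2a, 57.0, 69.1, 46.5 and 64.7 in shCtrl anti-PD1, 34.5, 37.3, 33.2 and 26.3 in shMdk IgG2a and 40.8, 28.4, 83.9 and 71.9 in shMdk anti-PD1 tumours. The 4 shMdk IgG2a tumours had the narrowest range, and the difference from shCtrl IgG2a was -0.71 ± 0.36 (adjusted p = 0.557). Adm (adrenomedullin, a vasodilator peptide) had 1851, 1129, 1113 and 983 in shCtrl IgG2a, 1003, 802, 679.6 and 1020.0 in shCtrl anti-PD1, 375, 874, 942 and 1115 in shMdk IgG2a and 989, 693, 671 and 1224 in shMdk anti-PD1 tumours. It was highest in shCtrl IgG2a tumour 1 and lowest in shMdk IgG2a tumour 1, with -0.68 ± 0.30 (adjusted p = 0.441) between those groups. Ndrg1, Ddit4, P4ha1, P4ha2 and Kdm3a had highest-to-lowest ratios of 2.29 to 2.95 over the 16 tumours.

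Between lines under anti-PD1, 2 of 33 members were higher and 1 lower, where 4.93% and 0.995% of the 14672 genes were called in those directions. Averaged over antibodies the same 3 genes were called, where the shares were 6.23% higher and 2.17% lower. Under IgG2a 0 of 33 were called (1.74% of all genes), 3 having an unadjusted p under 0.05, and edgeR and DESeq2 on recovered reads also called 0. The share of all genes at that unadjusted threshold is not given. The members' median log2 difference was 0.00 under anti-PD1 and -0.03 under IgG2a, beside -0.02 and -0.01 for all genes. Under anti-PD1 3 members had groups that did not overlap (Slc16a3 and Hif1a higher, Aldoc lower), as did 13.4% of all genes. Under IgG2a no member did, beside 6.09% of all genes. In both comparisons 27 of 33 members had a 95% interval within 1 log2 unit of 0.

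**Figure D3:**
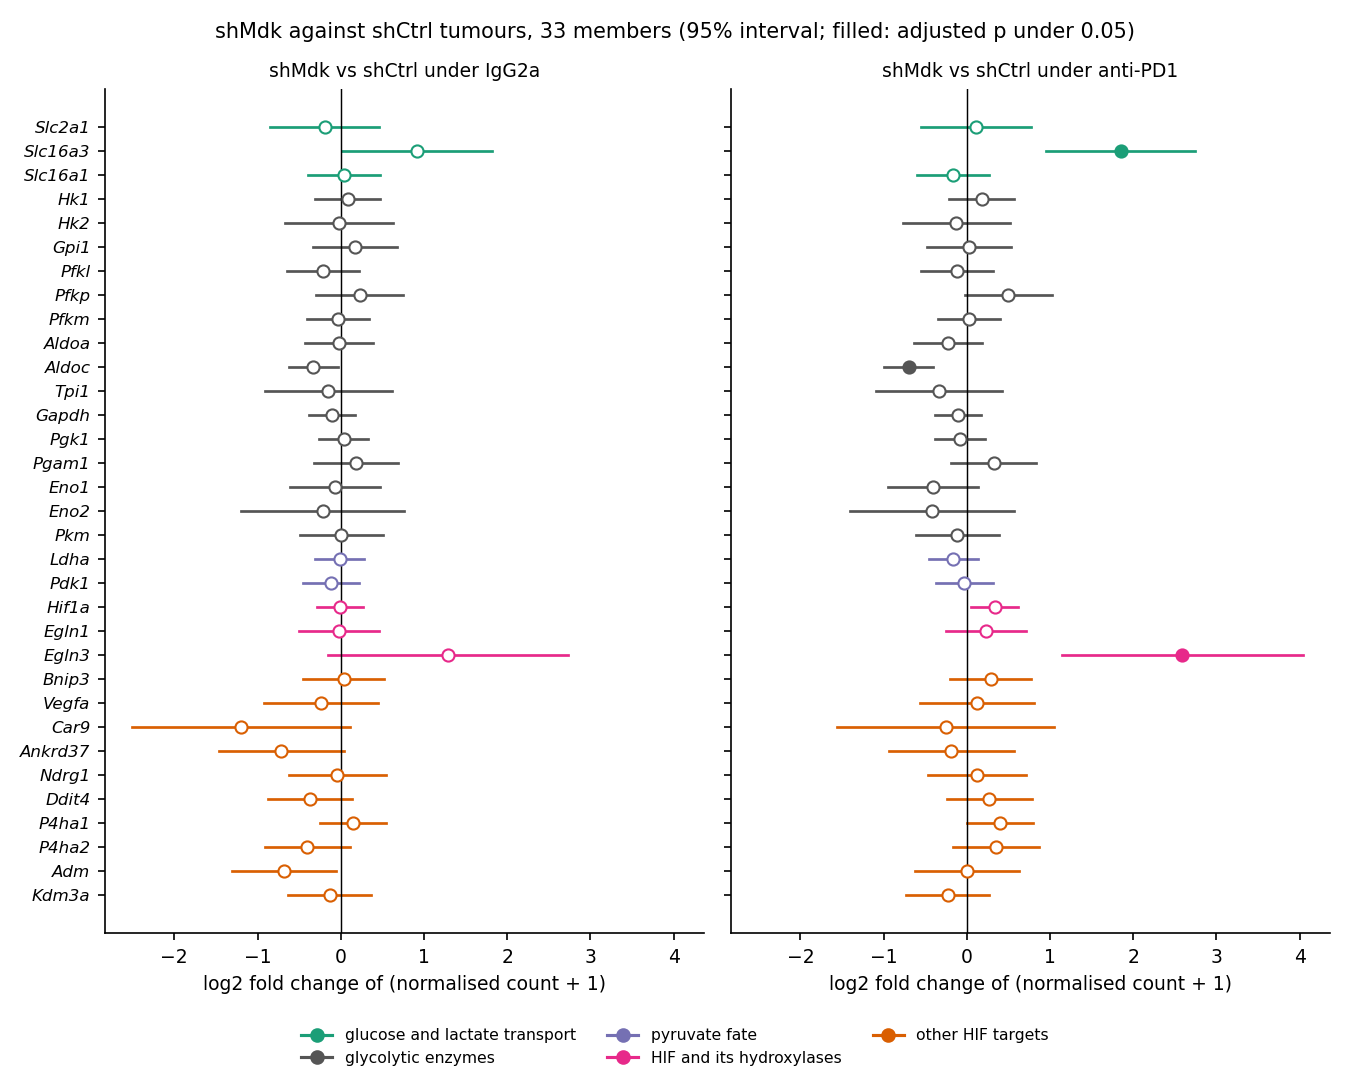
Log2 fold change (horizontal axis) of the 33 members for shMdk against shCtrl under IgG2a (left) and anti-PD1 (right); points are limma estimates, lines 95% intervals, filled points genes called, and colours roles. The 3 filled points are Slc16a3, Aldoc and Egln3 under anti-PD1, and most intervals cross 0.

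The anti-PD1 antibody was not followed by a called change in any member. In shCtrl tumours 0 of 33 were called, 0 had an unadjusted p under 0.05, and 0% of all genes were called by limma. In shMdk tumours 0 of 33 were called (0.0341% of all genes), 5 having an unadjusted p under 0.05. Averaged over lines 0 were called (0.0477% of all genes), with 4 at an unadjusted p under 0.05, and the difference of the antibody effects between lines called 0 members and 0% of all genes, with 1 at an unadjusted p under 0.05. DESeq2 and edgeR called 0 members in these 4 comparisons. The shares of all genes called are at an adjusted p under 0.05. Those at an unadjusted p under 0.05 are not given, so the unadjusted counts cannot be set beside these shares. No member had groups without overlap in shCtrl (2.11% of all genes), and 3 did in shMdk (8.51% of all genes): Hif1a and P4ha1 higher and Aldoc lower under anti-PD1.

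All 10 other HIF targets had a positive estimate for anti-PD1 in shMdk tumours, none called, with a median of 0.46 log2 units where all genes had 0.03. In shCtrl tumours 6 of 10 were positive, with a median of 0.16. Under IgG2a 8 of the 10 had a negative estimate for shMdk against shCtrl, with a median of -0.31, and under anti-PD1 3 of 10 did, with a median of 0.12. None of the 10 was called in either line comparison. The shCtrl IgG2a group held 2 of the libraries of positive GC slope and the shMdk IgG2a group 2. Without the 5 libraries the median was -0.32 in shCtrl, with 2 of 10 positive, and 0.50 in shMdk with 10 of 10 positive. The line difference under IgG2a then had a median of -0.79 with 10 of 10 negative, from 2 tumours against 2. With the GC slope as a covariate and no library left out, the median was -0.13 in shCtrl, with 3 of 10 positive. It was 0.36 in shMdk with 10 of 10 positive, and -0.25 for lines under IgG2a with 8 of 10 negative. Without the 2 libraries where Gm42418 exceeded 2% of reads, the median was 0.02 in shCtrl, with 6 of 10 positive. It was then 0.46 in shMdk with 9 of 10 positive, and -0.20 for lines under IgG2a with 8 of 10 negative. The share of all genes with a positive estimate is not given. The 15 glycolytic enzymes had medians, before leaving out libraries, of 0.00 (anti-PD1 in shCtrl), -0.12 (anti-PD1 in shMdk) and -0.02 (lines under IgG2a). Without the 5 libraries their medians were 0.08, -0.05 and 0.05 in that order. The antibody comparisons share IgG2a or anti-PD1 tumours with the line comparisons, so the 4 sets of values are not independent.

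**Figure D4:**
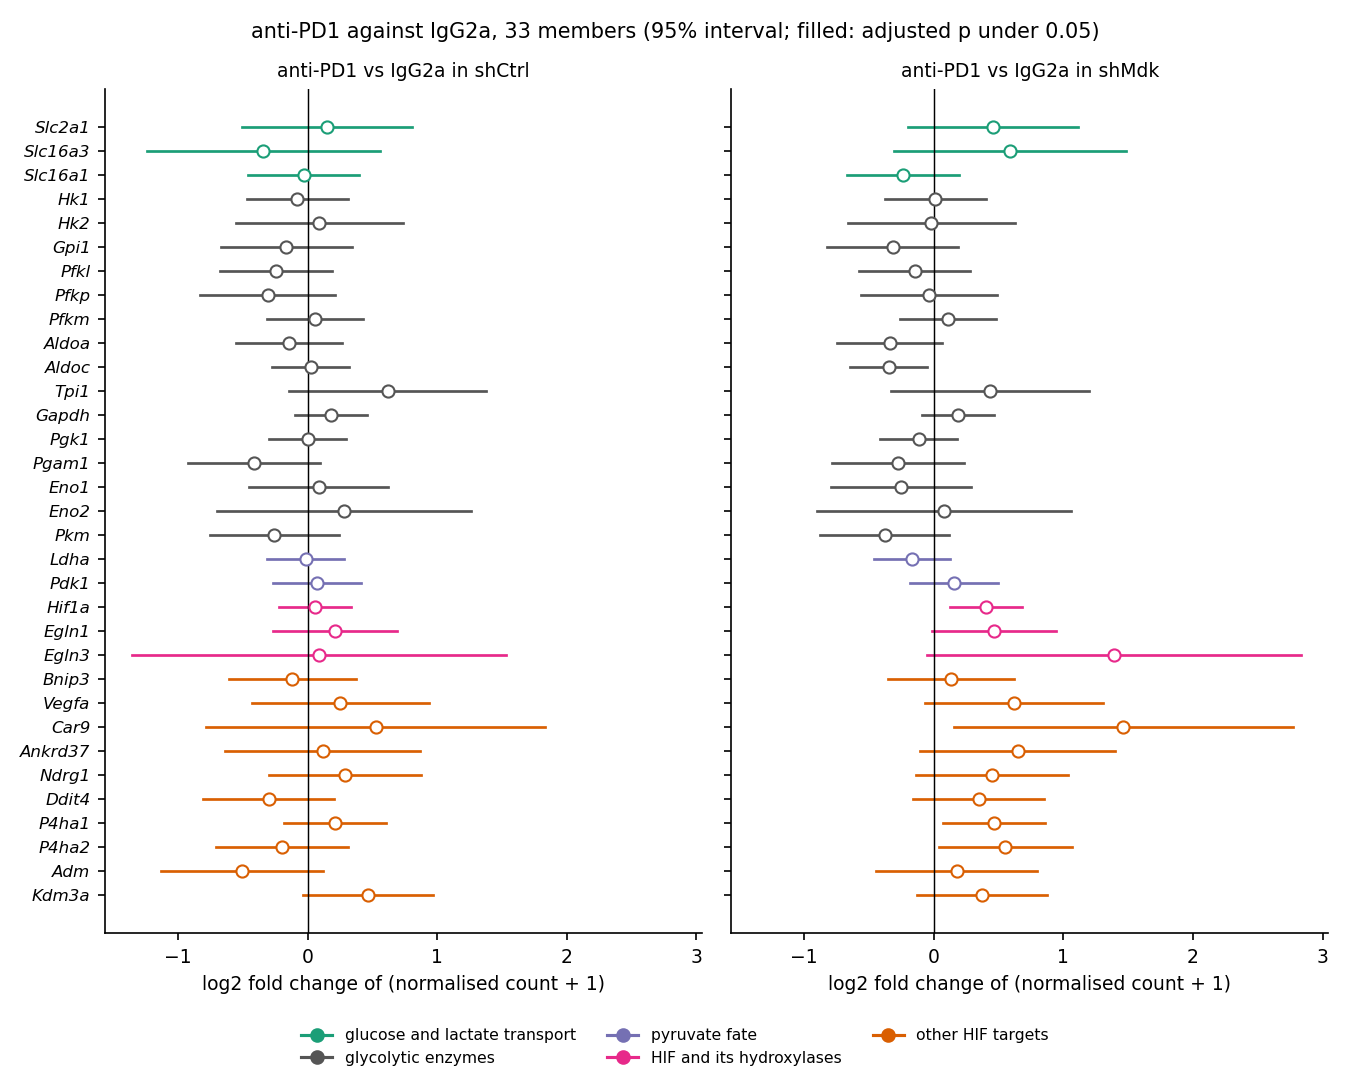
Log2 fold change (horizontal axis) of the 33 members for anti-PD1 against IgG2a in shCtrl (left) and shMdk (right) tumours; points are limma estimates, lines 95% intervals and colours roles. No point is filled, and all 10 other HIF targets lie above 0 in shMdk.

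Several members differed between the libraries of positive GC slope and the rest. Tpi1 (triosephosphate isomerase) was 2419 to 4660 in the 5 libraries of positive slope and 5661 to 10474 in the other 11. Kdm3a (a HIF-induced histone demethylase) was also lower, while Pgam1 and Pkm (late glycolytic enzymes) were higher, with no overlap in any of these 4 of the 33 members (12.1%). Among all genes 6.66% had no overlap between these libraries. Car9 overlapped, with medians of 145 in the 5 and 559.7 in the 11. The last 300 bases held 49.8% GC for Tpi1, 34.7% for Kdm3a, 44.7% for Pgam1, 55% for Pkm and 44.3% for Car9. The median of tested genes was 43.3%, so Tpi1 was lower in the 5 libraries although its GC content lay above that median. These libraries came from 3 of the 4 groups, and what set them apart was not tested.

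**Figure D5:**
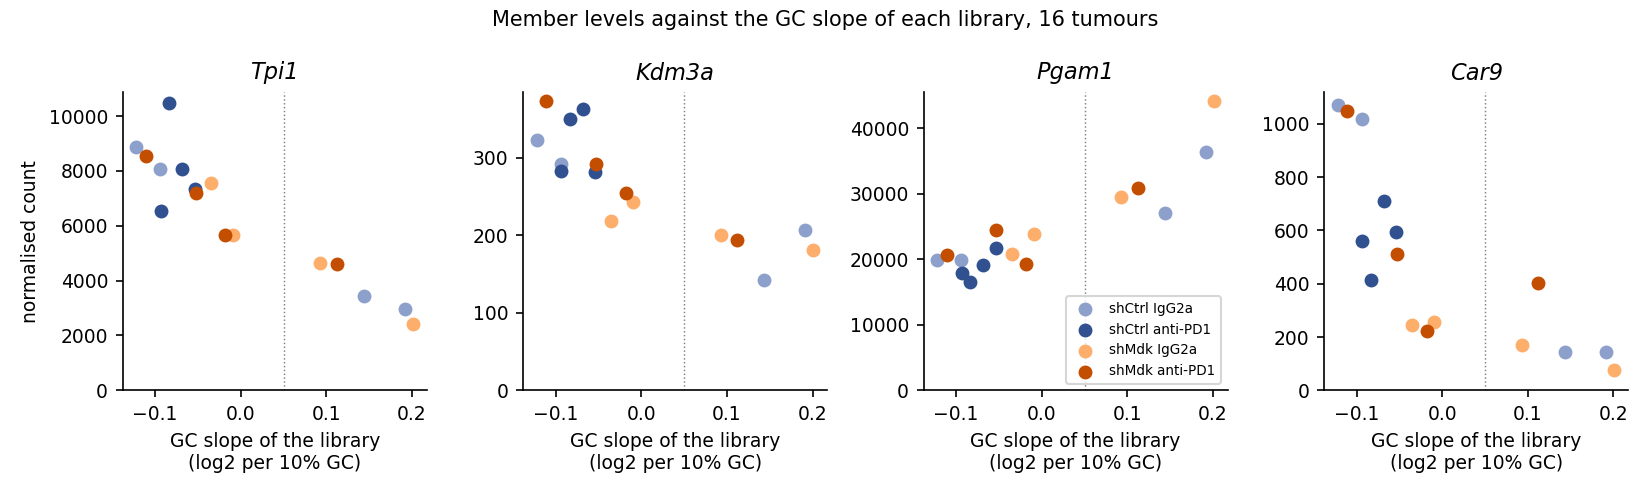
Normalised counts (vertical axis) of Tpi1, Kdm3a, Pgam1 and Car9 against the GC slope of each library (horizontal axis, log2 units per 10% GC); points are the 16 tumours, colours the groups, and the dotted line at 0.05 separates the 5 libraries. Tpi1 and Kdm3a are lower and Pgam1 higher to the right of the line, and Car9 overlaps.

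The tumour-to-tumour deviations of the members were set beside those of Pgk1 after group means were removed. No member correlated with Pgk1 over the 16 tumours once the two-sided permutation p was adjusted over all 14671 other genes tested, where the smallest adjusted p was 0.171. Unadjusted, 9 of 32 members had a permutation p under 0.05, beside 18.2% of all genes. Bnip3 had r = 0.81 and rho = 0.79 (permutation p = 0.00306 and 0.00339), Gpi1 r = 0.79 and rho = 0.86 (0.0011 and 0.00019), and Egln3 r = 0.77 and rho = 0.72 (0.00391 and 0.00504). Pfkp, Hk1, Pkm and Pgam1 had r of 0.71, 0.69, 0.66 and 0.64, and 3.2% of all genes had an r at or above that of Pgam1. These 7 were the members that passed by r with the adjustment over the 32 members that had been planned, and by rho Aldoa passed as an eighth (r = 0.61, rho = 0.61). Without the 2 tumours farthest from the median of Pgk1, r was 0.65 for Bnip3, 0.76 for Gpi1 and 0.58 for Egln3. By the planned adjustment none passed within the 11 libraries without a positive GC slope, where smaller groups allowed fewer permutations, and 5 libraries were too few for a value. Within the 11, r was 0.89 for Bnip3, 0.86 for Gpi1, 0.85 for Egln3 and 0.80 for Pfkp. Without the 2 farthest tumours these were 0.66, 0.80, 0.51 and 0.39. For Hk1, Pkm and Pgam1 r within the 11 was 0.63, 0.61 and 0.34. The 7 also fell to 0 without shCtrl anti-PD1 tumour 3 or shMdk anti-PD1 tumour 2, or without shMdk IgG2a tumour 1, 2 or 4, and to 3 without shMdk anti-PD1 tumour 1.

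Other genes of these pathways were read from 2 longer lists. Of 43 other HIF pathway genes tested, 7 were higher and 0 lower in shMdk against shCtrl under anti-PD1, with a median of 0.07 log2 units. Epas1 (the gene of HIF-2 alpha) was among the 7 and was also called by edgeR and DESeq2. Its call held in 8 of 8 fits with a tumour left out. Those gave log2 differences of 0.934 to 1.196 and adjusted p up to 0.0232 (limma). Averaged over antibodies, the Epas1 call was lost in 10 of 16 such fits. Of 41 other glycolysis and pyruvate genes, 2 were higher and 1 lower, with a median of 0.02. The shares over all genes were 4.93% higher and 0.995% lower, and the median was -0.02. Lox (a collagen crosslinking enzyme) had a log2 difference of 3.88 ± 0.76 (adjusted p = 0.00468), Tmem45a (a hypoxia-induced membrane protein) 3.65 ± 0.67 (adjusted p = 0.00306) and Hk3 (a hexokinase of myeloid cells) 3.03 ± 0.51 (adjusted p = 0.00201). Cxcl12 (a chemokine of stromal cells) had 1.81 ± 0.49 (adjusted p = 0.0356) and Cxcr4 (its receptor) 1.36 ± 0.35 (adjusted p = 0.0263), but leaving out a tumour lost these calls in 6 and 4 of 8 fits, with adjusted p up to 0.146 and 0.108 (limma). Hk3 was 1.501 to 10.1 normalised counts in shCtrl anti-PD1 and 29.1 to 53.9 in shMdk anti-PD1 tumours, and it was also higher in shMdk under IgG2a, by 2.32 ± 0.51 (adjusted p = 0.0243), a call that 6 of 8 fits with a tumour removed did not make. Tkt (transketolase of the pentose phosphate branch) fell by 0.83 ± 0.16 under anti-PD1 (adjusted p = 0.0049, limma), with 1667, 1214, 1597 and 1857 in the shCtrl group against 829, 937, 951 and 822 in the shMdk group. Averaged over antibodies, 7 HIF pathway genes were higher, and 3 glycolysis genes higher and 2 lower, beside 6.23% higher and 2.17% lower over all genes. Under IgG2a 0 of the 43 HIF pathway genes were called by limma, edgeR or DESeq2, with 2 at an unadjusted p under 0.05. For anti-PD1 against IgG2a, limma and edgeR called 0 genes of either list in either line. In shMdk tumours 12 of the 43 and 6 of the 41 had an unadjusted p under 0.05, and DESeq2 called 6 HIF pathway genes higher (Angptl4, Cxcl12, Epas1, Lox and Pfkfb3 among them) and Tkt lower. In shCtrl tumours 2 and 1 had an unadjusted p under 0.05, and DESeq2 called 0. The share of all genes at an unadjusted p under 0.05 is not given, so these unadjusted counts have no background beside them. The limma estimate for Lox was 2.80 in shMdk and -1.01 in shCtrl, and that for Tmem45a was -1.64 in shCtrl. Macrophage and fibroblast markers had the values given above, and their part in these differences was not tested.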

How the data were processed

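The authors deposited 1 table of normalised values per gene for 16 tumours, a signal that, per the submitters' processing notes and the file header, came from QuantSeq 3′ libraries processed on GRCm38; tools named there, with no role, are TopHat2 2.0.10 with Bowtie 1.0.0, HTSeq, DESeq2, SAMtools 0.1.19 and FastQC 0.11.0. Every deposited value (100%, within 0.001) was a whole read count divided by a size factor, so reads were recovered, 5686405 to 8886334 per tumour. Tests covered the 14672 of 16094 genes whose normalised counts averaged 5 or more, on log2(value + 1) with limma 3.58.1 in 1 fit of the 16 tumours, without covariates, with Benjamini-Hochberg adjustment over all tested genes for each of 7 comparisons. On recovered reads, edgeR 4.0.16 called 866 genes and DESeq2 1.42.0 called 1310 for shMdk against shCtrl under anti-PD1, where limma called 870. The limma script was tested on simulated data. Other alternatives were the pseudocount, the filter, the scaling, the variance model, the tumours fitted and each tumour left out; those on the GC slope and on Gm42418 (2 libraries above 2% of reads, at 4.47% and 3.17%) were chosen after seeing the data. Tumour numbers follow the order of deposit and pair nothing.

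Members and lists were chosen with earlier results of these data known. Named in full were members called in any comparison, a fixed set of 16 and members changed by at least 1 log2 unit in a simple comparison; of the longer pathway lists, up to 6 called genes with the largest change per comparison, or else the 2 with the largest change. P-values from limma set a group difference against the spread between tumours within groups, pooled over the 4 groups and moderated over genes. Those of the correlations came from permuting tumours within groups. Whether each tumour came from its own mouse is not given. RNA integrity numbers averaged 8.6 (5.8 to 9.2, per the labels) and were not given per tumour. The GC slope was fitted to each gene's deviation from its mean over the 16 tumours, over tested genes with a known 3′ end (98.5%). Promoter windows came from RefSeq on GRCm38.p6. Intervals are 95% and the smallest two-sided exact p of 4 against 4 tumours is 0.0286.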

Additional observations from a re-analysis of the deposited data

Results flagged for a closer look

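In 132 groups of 4 tumours (33 members in 4 groups), 12 held a tumour far from its 3 neighbours by Dixon's test, where chance gives about 1 group in 20. The tumour stood above its group for Slc16a3 in shMdk IgG2a tumour 4 (275 normalised counts, others 79.1 to 89.0) and shMdk anti-PD1 tumour 1 (326, others 129 to 146). It also stood above for Slc16a1 (538), Pfkp (4268) and Aldoa (36446) in shMdk IgG2a tumour 4, for Hk2 in shCtrl anti-PD1 tumour 2 (10315) and for Adm in shCtrl IgG2a tumour 1 (1851). It stood below for Pfkl (1875) and Pfkm (142) in shCtrl anti-PD1 tumour 3, for Gapdh (4532) and Ddit4 (637) in shMdk anti-PD1 tumour 2, and for Hif1a in shMdk IgG2a tumour 2 (871). Of the 12, 4 came from shMdk IgG2a tumour 4, a library of positive GC slope. No member passed the test of a difference in antibody effect between lines.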

How the results depend on the processing

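Every member called by limma kept its direction in every alternative run, and no alternative reversed a call; among 2912 alternatives of single members, 199 had another sign than the reported estimate, none of them where either was called. Weighting the tumours by their quality raised the members called to 2 under IgG2a (Ankrd37 and Car9, lower in shMdk) and to 5 averaged over antibodies (Car9 lower and Pfkp higher besides the 3 reported). Leaving out a tumour gave 1 to 3 members called under anti-PD1; shCtrl anti-PD1 tumour 1 and shMdk anti-PD1 tumour 1 each left Aldoc alone. Correlations with Pgk1 that passed with adjustment over the 32 members numbered 4 with group means kept, 0 to 10 with a tumour left out, and 0 without the 5 libraries of positive GC slope. The members' median differences moved by at most 0.21 log2 units over 182 alternatives, 18 of which changed the sign; without the 5 libraries the median went from -0.03 to -0.20 for lines under IgG2a and from 0.06 to -0.06 for anti-PD1 in shCtrl. Over all genes, tumour weights raised the calls from 5 to 73 (anti-PD1 in shMdk), 255 to 983 (lines under IgG2a), 870 to 1889 (under anti-PD1), 1233 to 2962 (averaged over antibodies) and 7 to 149 (averaged over lines). DESeq2 gave 244, 449, 1310, 1694 and 220 in the same order, and edgeR 8 for the first and 11 for the last; for anti-PD1 in shCtrl, where limma called 0 genes, tumour weights gave 20 and DESeq2 7. Leaving out a tumour gave 0 to 12, 136 to 272, 453 to 851, 935 to 1474 and 4 to 38 in that order, and leaving out the 5 libraries of positive GC slope 1, 74, 625, 748 and 0. With that slope as a covariate the counts were 56, 409, 1417, 1903 and 12. TMM scaling shifted a tumour by at most 0.024 log2 units and centring on the median by at most 0.18. No paired analysis was possible because the labels give no numbers that pair tumours across groups. With 4 tumours a group, and 2 reads behind the lowest Egln3 value, small differences were not detectable.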

Other observations

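Other ratios within tumours, described without a test, varied as follows. P4ha2 was 87.0% to 116% of P4ha1 (collagen prolyl hydroxylase subunits) in shCtrl IgG2a and 54.8% to 83.2% in shMdk IgG2a tumours, without overlap, while the anti-PD1 groups overlapped at 61.3% to 88.9% and 53.8% to 93.4%. Egln3 was 0.237% to 2.04% of Egln1 in shCtrl anti-PD1 and 2.27% to 10.9% in shMdk anti-PD1 tumours. Ldha was 5.79 to 7.03 times Ldhb (the lactate dehydrogenase B gene) in shCtrl anti-PD1 and 2.88 to 5.97 times in shMdk anti-PD1 tumours, which overlapped. Hk2 was 1.55 to 4.59 times Hk1, and its ranges overlapped in all groups.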
